A study of Mus musculus with 4 samples.

Results

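The cell cycle, replication and DNA repair genes described here are 85 of 5058 genes with a listed transcript, chosen by symbol from transcript lists of mouse granulocyte-monocyte progenitors. The rule took symbols that begin with Ccn (followed by a letter from A to L and a digit), Cdk, Cdc, E2f, Mcm (with a digit), Orc, Fanc, Rad (with a digit), Brca, Pold, Pole, Polq, Cenp, Xrcc or Ercc, and added Mki67, Atm and Atr. It used no measured value. Such progenitors sit in the bone marrow and mature into neutrophils and monocytes. The study compared wild-type mice with MST1-deficient mice by RNA-seq of poly(A)-selected RNA, with 2 libraries per genotype and cells of 10 mice pooled in each library. The sorted cells of both genotypes were kept in serum-containing medium and received no drug. The labels give no age, sex, strain, allele or promoter, and they do not say whether the knockout acts in all cells. P-values rest on the spread between 2 pools per genotype, which the tests share in part across genes, and not on the spread between single mice.

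The values cover only transcripts that the deposited identifiers set apart as new to the annotation, named unannotated transcripts below. The annotated forms of each gene were not analysed here, so a low value for a gene does not mean that the gene was silent. MST1 was taken to be the Hippo pathway kinase that Stk4 encodes. Stk4 had 0 listed transcripts in every library, so the genotype could not be checked and rests on the labels.

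A dividing cell copies its DNA once and then shares it between its daughters. Cyclins activate cyclin-dependent kinases (CDKs), which release E2F transcription factors from the retinoblastoma proteins. E2F factors switch on the genes for origin licensing (Orc and Mcm proteins), for DNA polymerases and for many repair proteins. The kinases Atm and Atr sense broken or stalled DNA, and the Fanconi anaemia, Brca, Rad, Xrcc and Ercc proteins repair it. Centromere proteins attach the chromosomes to the spindle, and Mki67 coats mitotic chromosomes and marks cycling cells. Bone marrow progenitors divide quickly, and blood formation is sensitive to loss of Fanconi anaemia genes.

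The 85 genes had 129 unannotated transcripts. In wild-type libraries 1 and 2, 74 and 78 of the genes were listed, and in MST1-deficient libraries 1 and 2, 72 and 80. All 4 libraries listed 64 of the genes (75.3%), near the share among all genes (72.8%). One transcript per gene was the usual case, with 57 genes having 1 and 28 having more. Ccnl1 had 5 forms, and no gene had more. The median length was 4042 bases, against 3882 over all unannotated transcripts of numbered genes. Of 128 transcripts whose symbol is in GENCODE M21, 60 were longer than the longest transcript that GENCODE gives for the gene, and 2 had the length of a GENCODE transcript.

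Levels are given in FPKM (fragments counted per unit of transcript length and of library size), summed over the unannotated transcripts of a gene. The lists hold no zeros, and a transcript missing from a library was entered as 0. The median gene had a mean of 1.93 FPKM over the libraries, against 1.89 for all genes. Only 11 of the 85 reached a mean of 10 FPKM, and 28 stayed under 1 FPKM. Summed over all 85 genes, the level was 486 and 531 FPKM in wild-type libraries 1 and 2 and 519 and 515 FPKM in MST1-deficient libraries 1 and 2. The groups overlapped. In estimated counts the genes made up 1.27% and 1.5% of all listed counts in the wild-type pools and 1.38% and 1.51% in the MST1-deficient pools. These shares also overlapped. Of all listed FPKM the genes made up 0.650% and 0.693% in the wild-type pools and 0.769% and 0.724% in the MST1-deficient pools, without overlap. The total of all listed FPKM, by which these shares are divided, was itself lower in both MST1-deficient libraries. That total was 74762.5 and 76681.3 in wild-type libraries 1 and 2 and 67404.4 and 71205.3 in MST1-deficient libraries 1 and 2.

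**Figure D1:**
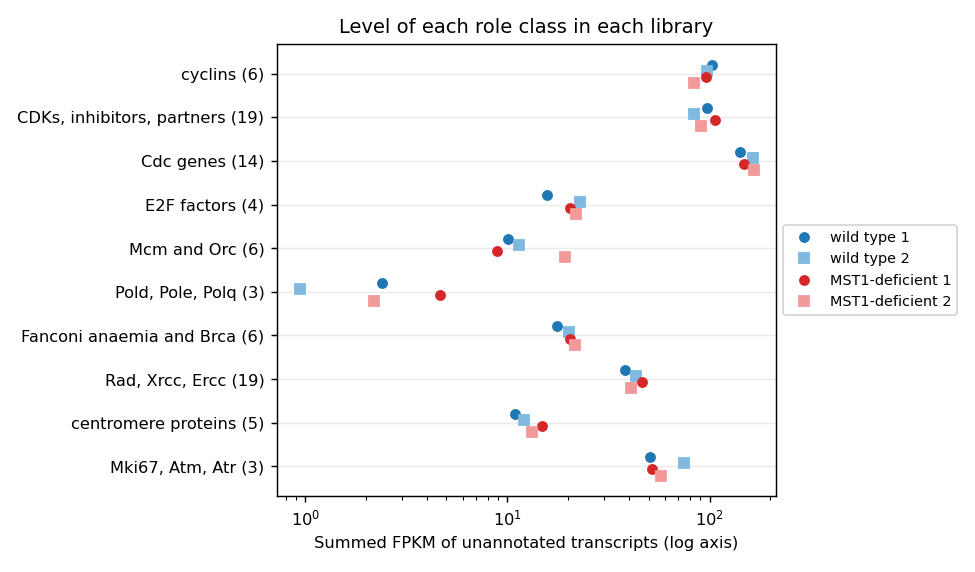
Summed FPKM of the unannotated transcripts of each role class (x axis, logarithmic) for the 4 libraries; the number of genes in a class is in brackets. The Cdc genes, cyclins and CDK genes held the highest sums, and the sums of most classes overlapped between wild-type (blue) and MST1-deficient (red) libraries.

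The strongest unannotated signals came from a few genes. Cdc123, which assembles the translation factor eIF2, had 50.7 and 60.2 FPKM in the wild-type pools and 58.4 and 67.3 in the MST1-deficient pools. Mki67 had 42.3 and 63.6 FPKM in the wild-type pools and 39.0 and 46.7 in the MST1-deficient pools. Ccnl1, a cyclin that acts in splicing and transcription, had 46.4 and 51.8 FPKM against 55.8 and 53.6. Wild-type library 2 was the highest for Mki67 and the groups overlapped, while for Ccnl1 both MST1-deficient libraries lay above both wild-type ones. Ccnl2, Cdca4 and Cdc26 followed, each above 27 FPKM in every library.

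No gene of the set passed the test between genotypes. With edgeR's quasi-likelihood test on summed estimated counts, 57 of the 85 genes had enough signal to be tested (1 FPKM in at least 2 libraries). Adjusted p was under 0.05 for 0 of the 57, as it was for 0 of all 3220 genes tested (0.0%). The lowest adjusted p in the set was 0.501. An unadjusted p under 0.05 was found for 5 genes (8.77%), with 4 higher (7.02%) and 1 lower (1.75%) in the knockout. Over all genes tested, 5.65% had such a p, 3.01% higher and 2.64% lower. Of the 5 genes, Fancg, Pold1 and Ccnb1ip1 reached 1 FPKM only in the genotype where they were higher. For them the filter itself favoured that direction. DESeq2 called 1 gene of the set, Fanca, beside 46 of all genes (1.43%). Limma on log2(FPKM + 0.5) called 0 of the set and 5 of all genes (0.155%), with an unadjusted p under 0.05 for 6 of the 57 and for 6.61% of all.

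The fold changes leaned to higher values in MST1-deficient cells, with 0 genes of the set past edgeR's or limma's adjusted threshold and 1, Fanca, past that of DESeq2. The median log2 fold change was 0.20 over the 57 genes and 0.01 over all genes tested, and 39 of the 57 (68.4%) were above 0, against 51.1% over all genes. Both MST1-deficient libraries lay above both wild-type ones in FPKM for 15 of the 57 genes (26.3%), where 14.0% of all genes did so. Both lay below for 7 (12.3%), where 18.8% of all genes did so. Over the 85 genes with no filter, 16 lay above (18.8%; all listed genes 13.2%) and 11 below (12.9%; all listed genes 16.3%). With no filter the median was 0.14 (all genes -0.0), and 51 of the 85 genes were above 0. Limma gave a median of 0.12 (all genes -0.06), and 36 of the 57 were above 0. In the filtered edgeR fit the lean depended on the libraries. The median was 0.01 without MST1-deficient library 2 and 0.08 without wild-type library 1, and it was 0.33 without wild-type library 2. The counts over the 57 describe genes that passed a filter on low values, and the genes were not tested as a list.

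**Figure D2:**
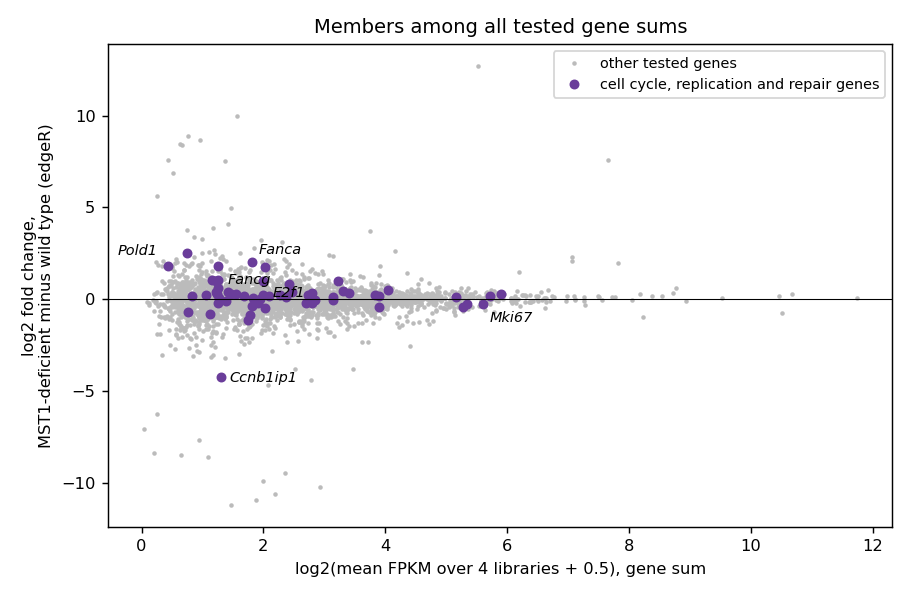
Log2 fold change of each tested gene sum (y axis, edgeR, MST1-deficient minus wild type) against log2(mean FPKM + 0.5) (x axis). The 57 tested cell cycle, replication and repair genes (purple) lie within the cloud of the other tested genes (grey), with Ccnb1ip1 the lowest of them at -4.23.

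Replicates often differed more than the genotypes did. On the log2(FPKM + 0.5) scale, the larger gap between replicates exceeded the gap between group means for 41 of the 57 genes (71.9%), against 78.5% of all genes tested. The MST1-deficient replicates were more than 1 log2 unit apart for 14 of the 57 genes (24.6%), and the wild-type replicates for 7 (12.3%). Over all genes these shares were 20.5% and 12.5%. E2f3 is an example, with 0.750 and 7.13 FPKM in the wild-type pools and 1.02 and 2.45 in the MST1-deficient pools. Rad52, a mediator of strand annealing, had 6.25 and 1.30 FPKM against 3.92 and 0.340.

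Libraries also differed in ways that moved with genotype in part. Of 15 markers fixed for granulocyte-monocyte progenitors, 3 were listed. These were Gfi1, Csf3r and Kit, with a sum of 60.1 to 85.0 FPKM in wild type and 78.2 to 98.2 in MST1-deficient cells. The other 12 of the 15 markers, Mpo and Elane among them, had no listed unannotated transcript. Ms4a2, the only listed one of 6 markers of eosinophils, basophils and mast cells, had 37.4 and 49.9 FPKM against 20.7 and 30.5. The 3 listed of 6 B cell markers summed to 22.3 and 1.72 FPKM in the wild-type pools and 9.46 and 8.42 in the MST1-deficient pools. The 3 listed of 6 T and NK cell markers summed to 16.9 and 5.71 FPKM against 13.7 and 7.63. Those of 6 mature neutrophil markers (3 listed) summed to 68.5 and 32.5 FPKM against 44.3 and 41.3, and those of 5 megakaryocyte markers (3 listed) to 37.0 and 45.2 against 44.5 and 34.4. Of 8 erythroid markers 2 were listed, at no more than 0.270 FPKM in sum, and of 4 stromal and endothelial markers 2, with sums of 3.96 to 16.2 FPKM. The Y-linked gene Ddx3y had 1.91 FPKM in wild-type library 1, was not listed in library 2, and had 10.2 and 5.60 FPKM in the MST1-deficient pools, while Kdm5d, Uty and Eif2s3y were also higher in both MST1-deficient pools. The labels do not give the sex of the mice. The levels of these Y-linked genes did not overlap between the genotypes, so sex and genotype cannot be told apart in the values below. The part of cell mixture was not tested. In RNA from pooled cells, fewer cells that use a gene and less RNA per cell cannot be told apart.

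The Fanconi anaemia and Brca genes held the smallest p of the set. Fanca and Fancg encode subunits of the core complex that marks the damaged site for repair of DNA crosslinks. Fanca (gene 14087, chromosome 8, 123266294 to 123318651, GRCm38.p6) had 1.48 and 0.930 FPKM in the wild-type pools and 6.63 and 2.98 in the MST1-deficient pools. Its estimated counts were 83.2 and 50.6 against 341 and 186. The groups did not overlap, and MST1-deficient library 1 stood highest. The log2 fold change was 2.06 ± 0.44 (SE) (unadjusted p = 0.00697, adjusted p = 0.501 with edgeR). DESeq2 gave an adjusted p of 0.0162 for the same counts, and over all alternatives the adjusted p ran from 0.0162 to 0.999.

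Almost all of the Fanca signal lay in 1 form of 7753 bases, longer than the longest GENCODE transcript of the gene (4485 bases). That form made up 87.8% and 93.6% of the summed FPKM in the wild-type pools and 96.5% and 94.3% in the MST1-deficient pools. Tested as a single transcript, it had a log2 fold change of 2.09 ± 0.48 (SE) (adjusted p = 0.5 with edgeR), and DESeq2 called it.

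Fancg (gene 60534, chromosome 4, 43002337 to 43010567) had 0.740 and 0.930 FPKM in the wild-type pools and 3.81 and 2.11 in the MST1-deficient pools. Its log2 fold change was 1.82 ± 0.56 (SE) (unadjusted p = 0.0268, adjusted p = 0.770 with edgeR). The groups did not overlap, and MST1-deficient library 1 was again the highest. Fancg passed the filter through the MST1-deficient libraries alone. The estimated counts behind these values were low, at 16.1 and 18.6 in the wild-type pools and 71.2 and 48.9 in the MST1-deficient pools. Fancg has 2 forms that differ little in length (2859 and 2840 bases), and their split changed from library to library. The 2859-base form made up 100% and 48.4% in the wild-type pools and 23.9% and 58.3% in the MST1-deficient pools.

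Fancg is also 1 of 7 genes of the set with an E2F site before a RefSeq start. RefSeq promoter windows were found for 71 of the 85 genes, and the 250 bases before each start were searched on both strands for TTTCCCGC, TTTGGCGC and TTTCGCGC, 3 forms of the site that E2F factors bind. The 7 genes were Cdc25a, Cdc6, Cdk2, E2f3, Fancg, Orc3 and Xrcc6 (9.86% of 71), against 1.78% of all 27025 genes in the table. The table was not limited to genes listed here, and the number of windows per gene was not matched. The 71 genes had 86 windows, and a match before any start of a gene was counted. Such a start can lie inside the gene, as in Fancg, whose window falls wholly within its span. A match describes letters and does not show binding. The 4 of them with the highest mean level are printed from RefSeq (GRCm38.p6) from shortly before the match to the last base before the start, 5′ to 3′ on the gene's strand, with the match in capitals. Opposite-strand matches appear as GCGGGAAA.
Cdk2 (chr10:128705052-128705211, minus strand): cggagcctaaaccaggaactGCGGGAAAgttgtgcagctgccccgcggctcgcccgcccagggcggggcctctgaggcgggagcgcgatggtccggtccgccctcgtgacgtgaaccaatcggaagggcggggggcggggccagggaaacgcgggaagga
E2f3 (chr13:29986064-29986094, minus strand): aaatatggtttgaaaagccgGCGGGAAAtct
Orc3 (chr4:34614943-34615003, minus strand): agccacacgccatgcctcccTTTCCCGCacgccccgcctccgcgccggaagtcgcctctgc
Fancg (chr4:43010302-43010373, minus strand): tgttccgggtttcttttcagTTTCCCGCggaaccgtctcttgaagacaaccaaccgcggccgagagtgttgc
The match ended 133 bases before the start in Cdk2, 4 in E2f3, 34 in Orc3 and 45 in Fancg. Of these 4 genes, Fancg alone had an unadjusted p under 0.05.

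The other Fanconi anaemia and Brca genes did not share the pattern of Fanca and Fancg. Fancb, an X-linked core complex subunit, had 2.10 and 2.16 FPKM in the wild-type pools and 1.52 and 0.890 in the MST1-deficient pools, a log2 fold change of -0.81 ± 0.63 (SE). Fanci, a partner in the clamp that the core complex modifies, had 7.72 and 6.08 FPKM against 5.16 and 7.77. Brca1, which acts in repair by recombination, had 5.54 and 7.66 FPKM against 3.11 and 7.70. Fanci and Brca1 overlapped between the groups. Fancc did not reach the filter, with 2.32 FPKM in wild-type library 2 and at most 0.0700 elsewhere. Of the 5 tested genes of this class 2 were above 0 and 3 below, with a median log2 fold change of -0.02.

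Both tested polymerase genes had higher values in MST1-deficient cells. Both reached 1 FPKM only in the MST1-deficient libraries, so the filter itself favoured that direction. Pold1 (gene 18971, chromosome 7, 44532744 to 44548815), the catalytic subunit of the lagging-strand polymerase delta, had 0.480 and 0.270 FPKM in the wild-type pools and 1.63 and 1.01 in the MST1-deficient pools. Its log2 fold change was 1.83 ± 0.56 (SE) (unadjusted p = 0.0251, adjusted p = 0.756 with edgeR). Its 1 form of 6358 bases was longer than the longest GENCODE transcript (3496 bases). Polq, the polymerase of microhomology-mediated end joining, was not listed in wild-type library 1 and had 0.670 FPKM in wild-type library 2 and 2.87 and 1.16 in the MST1-deficient libraries. Its log2 fold change was 2.52 ± 1.68 (SE) (adjusted p = 0.992). That fit took the missing library as 0, and the log2 fold change was 1.48 without it. Without wild-type library 2 no wild-type count is left, and the fold is not given. Pole, the leading-strand polymerase, did not reach the filter, with 1.91 FPKM in wild-type library 1 and at most 0.160 elsewhere.

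Among the E2F factors, E2f1 differed most by p. E2f1 (gene 13555, chromosome 2, 154559400 to 154569892), an activator of S phase genes, had 2.14 and 2.59 FPKM in the wild-type pools and 5.41 and 3.82 in the MST1-deficient pools. The groups did not overlap, and the log2 fold change was 1.0 ± 0.34 (SE) (unadjusted p = 0.0373, adjusted p = 0.834 with edgeR). Its form of 4206 bases exceeded the longest GENCODE transcript (2755 bases). E2f8, a repressor of the same targets, had 12.6 and 13.1 FPKM against 13.8 and 15.5, a log2 fold change of 0.26 ± 0.26 (SE). E2f5 stayed at or under 0.160 FPKM and was not tested.

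**Figure D3:**
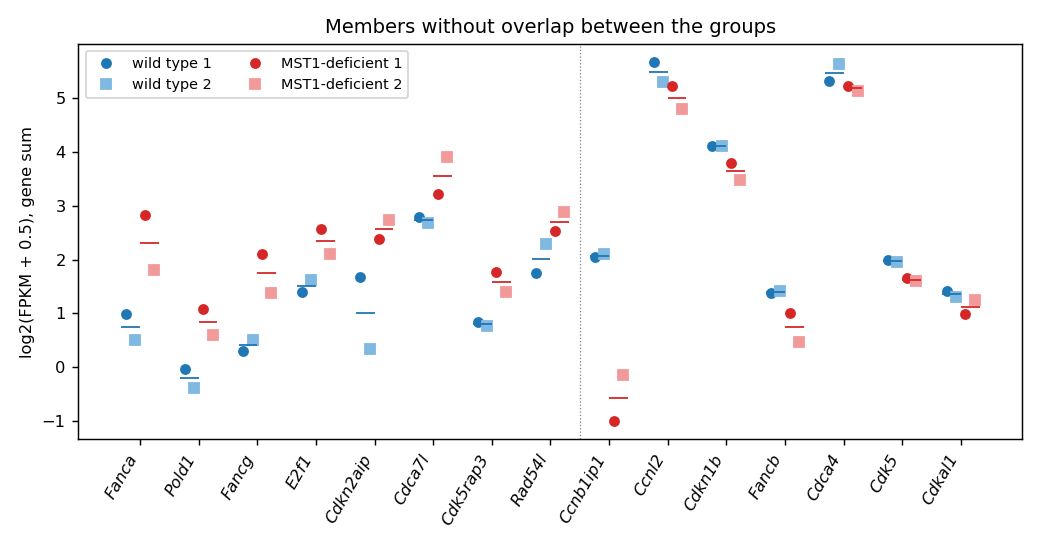
Gene sums as log2(FPKM + 0.5) in each library (y axis) for the genes without overlap between groups with the smallest p, 8 higher and 7 lower in MST1-deficient cells, split by the dotted line; short bars are group means. Fanca, Pold1, Fancg and E2f1 were highest in MST1-deficient library 1, Cdkn2aip and Cdca7l in library 2.

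Cyclins and cyclin-named genes gave the lowest fold change of the set. Ccnb1ip1 (gene 239083, chromosome 14, 50789249 to 50795728) encodes a ubiquitin ligase that binds cyclin B and acts in meiotic crossing over. It had 3.61 and 3.80 FPKM in wild type, was not listed in MST1-deficient library 1 and had 0.410 FPKM in library 2. The gene thus passed the filter through the wild-type libraries alone. Its estimated counts were 36.9 and 45.2 in wild type against 4.23 in MST1-deficient library 2. The log2 fold change was -4.23 ± 1.37 (SE) (unadjusted p = 0.0307, adjusted p = 0.792 with edgeR). That fit took the missing library as 0, and the log2 fold change was -3.28 without it. Without MST1-deficient library 2 no count is left in that genotype, and the fold is not given. Its 1966-base form was the only transcript of the set listed in both libraries of one genotype and in neither of the other, with 0.550 and 2.46 FPKM in wild type.

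Ccnl2, the relative of Ccnl1, had 50.3 and 38.7 FPKM in the wild-type pools and 36.6 and 27.3 in the MST1-deficient pools, a log2 fold change of -0.43 ± 0.18 (SE) (adjusted p = 0.912). Ccnd3, a cyclin of the G1 phase used by blood cells, had 1.42 and 1.5 FPKM against 1.88 and 1.51. The libraries of Ccnd3 did not overlap, yet its log2 fold change was 0.26 ± 0.47 (SE). Ccne1 and Ccne2, which drive entry into S phase, did not reach the filter, at no more than 1.19 FPKM in any library.

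The CDK class held 19 genes, of which 16 were tested, 11 above 0 and 5 below. Cdkn2aip, which binds the Arf tumour suppressor, had 2.70 and 0.770 FPKM in the wild-type pools and 4.71 and 6.16 in the MST1-deficient pools, a log2 fold change of 1.76 ± 0.68 (SE) (unadjusted p = 0.0532). The value was 2.80 without wild-type library 1 and 1.17 without library 2. Cdk5rap3, a partner of a ufmylation ligase, had 1.30 and 1.21 FPKM against 2.91 and 2.15, a log2 fold change of 1.06 ± 0.52 (SE). Cdk6, the main G1 kinase of blood progenitors, had 0.840 and 1.53 FPKM against 3.42 and 1.53, and the groups touched. Its log2 fold change was 1.0 ± 0.49 (SE) (unadjusted p = 0.1).

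Cdkn1b, an inhibitor that holds cells in G1, had 16.7 and 16.8 FPKM in the wild-type pools and 13.3 and 10.7 in the MST1-deficient pools. The groups did not overlap, and the log2 fold change was -0.43 ± 0.19 (SE) (unadjusted p = 0.079, adjusted p = 0.912). Cdkn1a, the inhibitor that p53 induces, had 3.64 and 5.42 FPKM against 2.89 and 8.14. Its lowest and highest values both fell in MST1-deficient cells. Cdk2, the S phase kinase, had 13.8 FPKM in both wild-type libraries and 16.6 and 13.7 in MST1-deficient cells. Cdk11b had 14.2 and 12.7 FPKM against 25.4 and 11.9, so library 1 alone set the higher mean. Cdk5, a kinase best known from neurons, had 3.46 and 3.40 FPKM against 2.65 and 2.52, with a log2 fold change of -0.34 ± 0.44 (SE). Cdkal1, which modifies a transfer RNA, had 2.17 and 1.97 FPKM against 1.49 and 1.87.

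**Figure D4:**
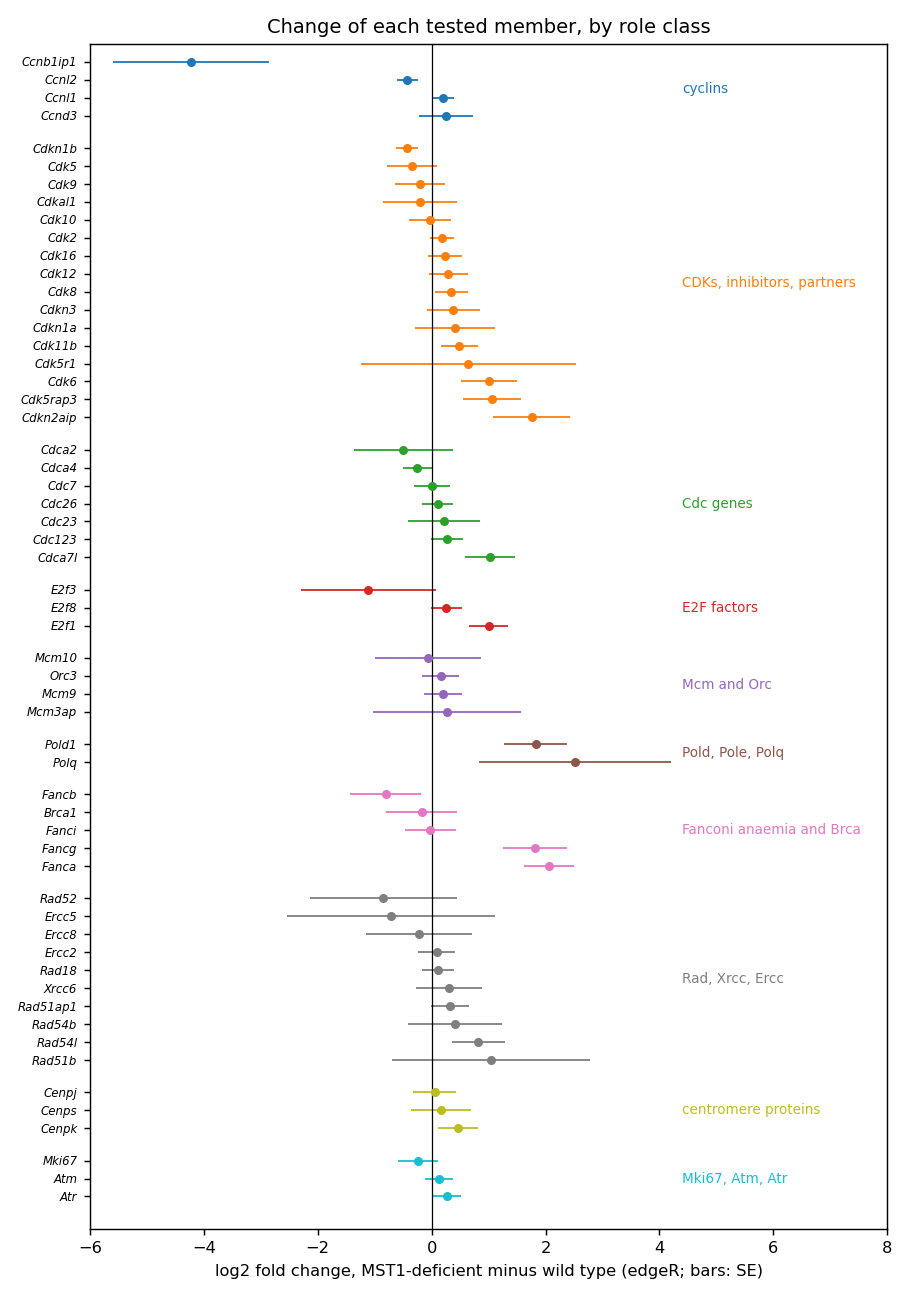
Log2 fold change (x axis, edgeR, MST1-deficient minus wild type) with its SE (bars) for the 57 tested genes, grouped by role class. Relative to their SE, Fanca (2.06), Pold1 (1.83), Fancg (1.82) and Ccnb1ip1 (-4.23) lie furthest from 0. Their adjusted p ran from 0.501 to 0.792 with edgeR.

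Of the 14 Cdc-named genes, 7 were tested, 5 above 0 and 2 below. Cdca7l, a partner of Myc, had 6.40 and 5.91 FPKM in the wild-type pools and 8.74 and 14.5 in the MST1-deficient pools, a log2 fold change of 1.02 ± 0.43 (SE) (unadjusted p = 0.0707). The value was 0.41 without MST1-deficient library 2 and 1.45 without library 1. Cdca4 had 39.0 and 49.1 FPKM against 36.7 and 34.5, a log2 fold change of -0.25 ± 0.25 (SE). Cdc26, a subunit of the anaphase-promoting complex, varied little, with 32.9 and 37.1 FPKM against 33.6 and 37.8. Cdc7, the kinase that fires origins, had 3.32 and 3.53 FPKM against 3.47 and 3.11. Cdc6, which loads the Mcm helicase, stayed at or under 0.21 FPKM.

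Of the 6 Mcm- and Orc-named genes, 4 were tested and 0 passed with edgeR. Several differed widely between libraries. Mcm9, a helicase of recombination repair, had 3.70 and 3.39 FPKM in the wild-type pools and 4.82 and 3.19 in the MST1-deficient pools. Orc3, a subunit of the origin recognition complex, had 2.93 and 2.37 FPKM against 2.79 and 2.69. Mcm2, a subunit of the replicative helicase, was listed in MST1-deficient library 2 alone, with 151 estimated counts (5.38 FPKM). It was missing from the other 3 libraries. Mcm10 had 1.38 and 2.69 FPKM against 0.840 and 3.51.

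The Rad, Xrcc and Ercc class held 19 genes, of which 10 were tested, 7 above 0 and 3 below. Rad54l, a motor of homologous recombination, had 2.85 and 4.39 FPKM in the wild-type pools and 5.27 and 6.85 in the MST1-deficient pools. The groups did not overlap, and the log2 fold change was 0.82 ± 0.46 (SE) (unadjusted p = 0.141). With a library left out it ran from 0.43 to 1.27. Rad18, a ligase of damage tolerance, had 8.30 and 8.62 FPKM against 7.33 and 9.01. Rad51b was not listed in wild-type library 1 and had 2.28 to 2.37 FPKM in the other 3 libraries.

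Centromere proteins and the checkpoint kinases differed by less than 0.5 log2 units. Cenpk, a subunit of the inner kinetochore, had 7.74 and 8.62 FPKM in the wild-type pools and 10.9 and 10.3 in the MST1-deficient pools, a log2 fold change of 0.46 ± 0.35 (SE). Atr had 5.23 and 6.09 FPKM against 7.65 and 5.59, and Atm had 3.47 and 5.16 against 5.03 and 5.04. For Mki67 the log2 fold change was -0.24 ± 0.35 (SE). Its direction turned without wild-type library 2, to 0.18, and without MST1-deficient library 1, to 0.01.

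Mki67 and Cdca4 had the highest levels among genes whose window held both a CHR element (TTTGAA) and a CCAAT box (CCAAT), the letters through which late cell cycle genes are often timed. Both windows are shown in the same form, with the 2 motifs in capitals and opposite-strand CCAAT boxes as ATTGG. The printed Cdca4 bases lie wholly, and those of Mki67 partly, inside the gene's span, before a start within it.
Mki67 (chr7:135716380-135716587, minus strand): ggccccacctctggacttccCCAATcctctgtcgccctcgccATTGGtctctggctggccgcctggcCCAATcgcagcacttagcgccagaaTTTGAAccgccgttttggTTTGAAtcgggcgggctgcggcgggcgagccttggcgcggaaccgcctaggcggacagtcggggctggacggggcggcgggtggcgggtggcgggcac
Cdca4 (chr12:112829390-112829450, minus strand): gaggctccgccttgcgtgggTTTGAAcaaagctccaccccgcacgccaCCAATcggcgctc
Over the set, 53.5% of the 71 genes held a CCAAT box and 15.5% a CHR element, against 37.5% and 18.3% of all genes in the table. The limits given for the E2F sites hold here too.

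The balance among forms of a gene was tested for 11 genes of the set with at least 2 tested transcripts. With diffSplice of limma, 0 of the 11 passed, against 17 of 909 genes in all (1.87%), and edgeR's diffSpliceDGE also gave 0 of the 11. Ccnl1 had the smallest p (unadjusted p = 0.024, adjusted p = 0.324) and was the 1 gene of the 11 (9.09%) under 0.05, where 10.9% of all genes were. Its 4959-base form made up 8.41% and 5.60% of the FPKM in the wild-type pools and 3.77% and 1.81% in the MST1-deficient pools. The 7537-base form made up 14.6% and 13.4% against 17.2% and 17.1%, and the 2218-base form 38.9% and 41.2% against 45.9% and 46.9%. The 3981-base form made up 23.95% and 21.6% against 20.1% and 15.3%. The shares of these 4 forms did not overlap between the groups, and those of the fifth did. Over the 27 tested forms of the 11 genes, 10 shares did not overlap (37.0%), against 32.9% of 2238 forms over all genes of that test. As a single transcript the 4959-base form had a log2 fold change of -1.14 ± 0.49 (SE) (adjusted p = 0.999 with edgeR).

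Other genes with several forms also differed between libraries. In Atm, the 5026-base form was not listed in wild-type library 1 and made up 26.4% in library 2, against 20.9% and 41.5% in MST1-deficient cells. In Atr, the 8056-base form made up 90.1% and 85.9% in the wild-type pools and 76.9% and 73.0% in the MST1-deficient pools. The 9493-base form of Atr made up 1.34% and 2.96% against 19.7% and 8.23%. Neither share of Atr overlapped between the groups, but only 1 form reached the filter, so Atr entered the balance test only in the alternative with no filter, where 0 of 28 genes of the set passed. In Fanci, the 2112-base form made up 69.8% and 79.1% against 46.5% and 66.7% (adjusted p = 0.720 for the gene with diffSplice). In Cdk10 the 1683-base form was not listed in MST1-deficient library 1 and made up 19.1% to 32.9% elsewhere.

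**Figure D5:**
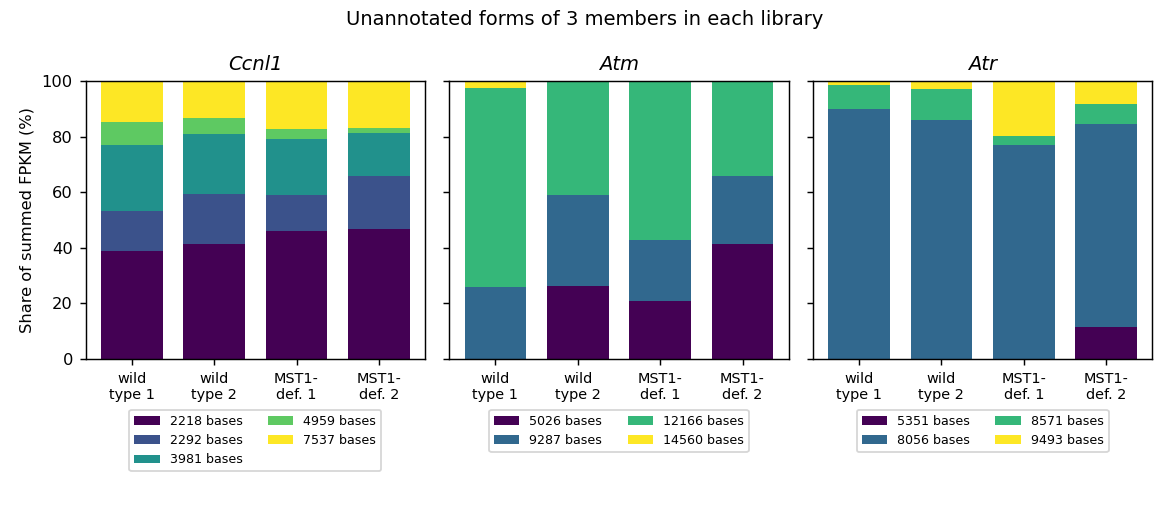
Share of the summed FPKM (y axis, %) of each unannotated form, named by its length, in each library for Ccnl1, Atm and Atr. The 4959-base form of Ccnl1 took 8.41% and 5.60% in the wild-type pools and 3.77% and 1.81% in the MST1-deficient pools.

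At the level of single transcripts, 72 of the 129 were tested and 0 passed with edgeR, as did 0 of all 4661 (0.0%). Unadjusted p was under 0.05 for 2 (2.78%), the 7753-base form of Fanca and the Pold1 transcript, both higher. Over all transcripts 5.26% had such a p, 2.27% higher and 2.98% lower. The fold change was above 0 for 47 of the 72 (65.3%; all transcripts 49.4%). Groups did not overlap for 20 higher (27.8%; all 13.7%) and 8 lower (11.1%; all 19.9%). DESeq2 called the Fanca form alone, beside 100 of all transcripts (2.15%), and limma called 0 of the 72 and 5 of all (0.107%), with an unadjusted p under 0.05 for 2 of the 72 and for 7.79% of all. Of the 72, 28 were longer than the longest GENCODE transcript of their gene. Both MST1-deficient libraries were above both wild-type ones for 11 of these 28 (39.3%) and for 9 of the other 44 (20.5%). They were below for 4 of the 28 (14.3%) and for 4 of the 44 (9.09%). Over all tested transcripts with a GENCODE match, 13.5% of the longer and 14.5% of the others lay above. The shares that lay below were 16.3% and 20.8%. This split was made after the values were seen and was not tested.

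Other genes of the same processes, from a list of 126 outside the rule, were looked at in the same fit. Of these, 63 were listed and 37 tested, and 0 passed with edgeR. The 1 gene with an unadjusted p under 0.05 was Rif1, which guards broken ends and sets replication timing, with 1.23 and 1.43 FPKM in the wild-type pools and 2.32 and 2.23 in the MST1-deficient pools (adjusted p = 0.834). The median log2 fold change of the 37 was 0.04, with 21 above 0 and 16 below.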

How the data were processed

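Per the file headers, the authors deposited 1 transcript list per library with the transcript length, an estimated count and an FPKM value. The estimated count is the deposited value before any scaling, per the file headers, and FPKM as deposited by the authors relates it to length and library size. The submitters' processing notes name mm10. Aligner, assembler, estimator, annotation and strand setting are not given in the sources used here, so reads of overlapping or near-identical genes may be shared. The members, lists and tests were chosen with earlier results of these data known.

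A transcript missing from a library was set to 0. NCBI gene numbers were matched to symbols through RefSeq (GRCm38.p6, the build of mm10) for 5051 of 5058 genes and through GENCODE M21 for 1 more. Libraries held 928977 to 1079382 estimated counts in all. Counts were rounded and tested with edgeR 4.0.16 (TMM, quasi-likelihood, 2-sided) under R 4.3.3, on features with FPKM of at least 1 in at least 2 libraries, with Benjamini-Hochberg adjustment over all features tested and a threshold of 0.05. Each SE of an edgeR log2 fold change was derived from the quasi-likelihood F, as the absolute change divided by the square root of F. For balance, diffSplice (limma 3.58.1) was run on log2(FPKM + 0.5), which pools the spread over the transcripts of a gene. An exact permutation test of 2 against 2 cannot go below 0.33, so single values were not tested. Alternatives were limma, DESeq2 1.42.0, other scalings, filters and pseudocounts, the replicate block and each library left out. The main edgeR test, on gene sums and on transcripts, and diffSplice were checked on simulated data. The alternatives, DESeq2 among them, were not. The simulated counts took the spread that edgeR fitted to these data, and the simulated FPKM took the same spread for all transcripts. The check thus does not rank the tests by their accuracy on these data.

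Named genes were those without overlap with the smallest p (up to 8 each way), the highest and smallest-p gene of each role class, the transcripts and balance tests with the smallest p, and genes with most forms. The result of 1 gene chosen by this rule is not reported here. Others were named after their values were seen, as examples of a role.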

Additional observations from a re-analysis of the deposited data

How the results depend on the processing

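Of 29 named and tested genes, 21 kept the direction of their gene sum under every alternative that gave a value, and 1 value crossed the threshold (Fanca with DESeq2). In 8 genes, 15 values turned. With the replicate block Cdk10 was 0.001, and with limma Rad18 was -0.054 (pseudocount 0.5), -0.057 (0.1) and -0.051 (1). With each library left out in turn, the values ranged from -0.091 to 0.356 for Atm, -0.014 to 0.493 for Cdc123, -0.495 to 0.017 for Cdca4, -0.32 to 0.324 for Cdk10, -0.591 to 0.094 for Cdkal1, -0.581 to 0.37 for Fanci, -0.587 to 0.182 for Mki67 and -0.178 to 0.343 for Rad18. Over all genes, the count past the threshold was 0 with edgeR, 5 with limma (9 and 5 with pseudocounts of 0.1 and 1), 46 with DESeq2 and 1 among genes above 0 in all 4 libraries. Over all transcripts it was 0 with edgeR, 5 with limma, 100 with DESeq2 and 2 above 0 in all 4 libraries. In the set, DESeq2 called 1 gene and 1 transcript and the other alternatives none. For balance, 17 genes of all passed, 11 with diffSpliceDGE, 2 above 0 in all libraries, 8 with no filter, 0 with the replicate block, and 0 to 2 with a library left out. The causes were not tested. The replicate numbers are no known pairing. The deviations of same-numbered libraries from their group means had a correlation of 0.075 over 3220 genes. Genes with few counts could show only large differences at this depth.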
